A study of Mus musculus with 6 samples.

Results

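The genes described here are 9 genes grouped as receptors of nonpeptidergic nociceptors, among them receptors for itch-evoking and lipid signals, with an enzyme that acts downstream of such receptors. They are the Mas-related receptor genes Mrgpra1, Mrgpra3, Mrgpre and Mrgprf, the histamine receptor gene Hrh1, the lysophosphatidic acid receptor genes Lpar3 and Lpar5, the angiotensin receptor gene Agtr1a and the phospholipase C gene Plcb3. A gene was taken where the annotation of the array gave a probe set exactly that symbol, and this found 9 probe sets for 8 of the 9 genes, among 45037 probe sets of 18193 genes. Lpar5 was listed for no probe set in the annotation used here and has no value below. Hrh1 had 2 probe sets and the other 7 genes 1 each.

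Dorsal root ganglia (DRGs) of cervical, thoracic and lumbar levels were taken at P60 from 3 Meis1cko and 3 control mice, and their RNA was measured with 1 Affymetrix mouse genome array in 1 colour for each mouse. Meis1cko mice, labelled Meis1 mutant, carry a floxed Meis1 allele whose exon 8, part of the homeodomain, is cut out by Cre under a Nav1.8 promoter fragment, so that the deletion is meant for most nociceptors and begins only late in gestation. The genotype of the control mice on the arrays is not given beyond the word control, and the behavioral tests of the study used Meis1 F/F littermates as controls. The study used both sexes, and the sex of the 6 mice is not given.

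Nonpeptidergic nociceptors are unmyelinated sensory neurons that end in the epidermis, respond to harmful touch and to itch-evoking substances, and depend on the transcription factor Runx1. Many of their receptors couple to Gq proteins, which switch on phospholipase C beta. This enzyme cleaves a membrane phospholipid, and the products release calcium from stores, activate protein kinase C and open channels such as Trpa1 and Trpv1. Since whole ganglia were measured, fewer cells of a type and less RNA per cell cannot be told apart, and the arrays do not show which cells gave a signal.

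Intensities below are linear values as normalized by the authors, and for Hrh1 the brighter of its probe sets stands for the gene unless the other is named. The medians of the 6 arrays lay between 62.5 and 65.5, and all 8 genes were above the median of the array in every mouse. Of the 10 sensory neuron markers, 9 were measured and all were bright, with the homeobox gene Pou4f1 the dimmest at a mean of 847. Meis1 itself, on its brightest probe set, had intensities of 66.0, 72.1 and 64.2 in Meis1cko DRGs and 110, 144 and 90.2 in control DRGs, and the groups did not overlap, with an adjusted p of 1 in limma. Its 2 dimmer probe sets had log2 fold changes of 0.13, with groups that did not overlap, and -0.16, with groups that did. The arrays numbered 3 of both genotypes stood apart in the Actb control probe sets, with a log2 difference of 3′ over 5′ of 0.44 in Meis1cko and 0.42 in control DRGs against 1.23 to 1.66 on the other 4 arrays.

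None of the 8 genes rose or fell in Meis1cko DRGs at the adjusted threshold of 0.05 in limma, which called 0.0155% of all probe sets. At an unadjusted p under 0.05 there were 0 as well, in limma, where 2.32% of all probe sets lay, and in the methods' t-test, where 3.04% lay. The log2 fold change was above 0 for 6 of the 8, as for 47.1% of all probe sets, among them Lpar3, Agtr1a and Mrgpra3 with log2 fold changes of 0.18, 0.23 and 0.21, and that of Hrh1 was -0.22. The median over the 8 genes was 0.11, against -0.01 over all probe sets. On Lpar3 alone did all 3 Meis1cko mice lie above all 3 control mice, as was the case for 3.21% of all probe sets, and 6.64% had groups that did not overlap in one direction or the other.

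Mrgpra3 encodes the receptor for the antimalarial drug chloroquine and marks a population of itch neurons. Its intensity was 1111, 800 and 712 in the 3 Meis1cko mice and 740, 731 and 753 in the 3 control mice. The control mice lay close together, with a coefficient of variation of 1.49%, while in Meis1cko DRGs it was 24.0%, and the Meis1cko mice fell on both sides of the controls. The log2 fold change was 0.21 (SE 0.18, 95% interval -0.20 to 0.63, adjusted p = 1 from limma). Without Meis1cko replicate 1, the mouse with 1111, it was 0.03, and without Meis1cko replicate 3 it was 0.35.

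Mrgpra1 lies in the same cluster of Mas-related genes on chromosome 7, 3 coding genes away from Mrgpra3 in the RefSeq annotation, and encodes a receptor that responds to neuropeptides and to bilirubin. Its intensity was 91.6, 93.8 and 91.7 in Meis1cko mice and 79.8, 96.1 and 82.5 in control mice. The Meis1cko values sat inside the control range. The mean was 92.4 ± 1.27 in Meis1cko and 86.1 ± 8.69 in control DRGs (SD, n = 3 mice each), a log2 fold change of 0.11 (SE 0.12). Here the wider spread was in the controls, the reverse of Mrgpra3. The genes of this cluster have similar coding sequences, and how far a probe set of one binds the transcript of another was not analysed here. A probe set listed for both Mrgpra2a and Mrgpra2b was therefore not used for either.

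Mrgpre and Mrgprf encode orphan receptors of the family, whose ligands are not established, and lie elsewhere on chromosome 7. Mrgpre had intensities of 307, 252 and 308 in Meis1cko mice and 342, 309 and 225 in control mice. Mrgprf had 86.1, 92.7 and 96.5 in Meis1cko mice and 102, 93.7 and 74.9 in control mice. For both genes the control replicate 3 mouse was the lowest of the 6, and the Meis1cko mice lay inside the range of the controls. The log2 fold changes were 0.00 for Mrgpre (SE 0.18, 95% interval -0.43 to 0.43) and 0.03 for Mrgprf (SE 0.15, 95% interval -0.31 to 0.38). Mrgprf is also known from smooth muscle cells, and the log2 fold changes of all 8 smooth muscle and pericyte markers lay above 0, at a median of 0.22, with Acta2, the smooth muscle actin gene, at 0.76. For 3 of the 8, Acta2, Tagln and Cnn1, all Meis1cko mice lay above all control mice, as for 3.21% of all probe sets. Myh11, Pdgfrb and Notch3 had 0.05, 0.06 and 0.01. The summed intensity of the 8 lay between 4703 and 8230 in Meis1cko and between 4244 and 6134 in control DRGs. Rgs5, with means of 4590 in Meis1cko and 3680 in control DRGs, dominated this sum. None of the 8 was called, and their part in the Mrgprf value was not tested.

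Hrh1 encodes the histamine H1 receptor, through which histamine evokes itch. The brightest probe set had intensities of 128, 132 and 74.2 in Meis1cko mice and 138, 124 and 115 in control mice. The Meis1cko replicate 3 mouse was far below the other 5, which overlapped between genotypes. The log2 fold change was -0.22 (SE 0.23, 95% interval -0.76 to 0.33, adjusted p = 1 from limma), and without Meis1cko replicate 3 it was 0.05. The dimmer probe set had 31.2, 29.1 and 44.5 in Meis1cko mice and 36.5, 36.2 and 49.2 in control mice, with a log2 fold change of -0.23 (SE 0.21). The 2 probe sets ran in opposite ways over the mice, since replicate 3 of each genotype was the lowest of its group on the brighter one and the highest on the dimmer one. Their correlation over the 6 arrays was -0.60. With the 2 probe sets averaged, all Meis1cko mice lay below all control mice, at a log2 fold change of -0.22. In that setting 7.14% of genes had groups that did not overlap, and Hrh1 was not called.

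**Figure D1:**
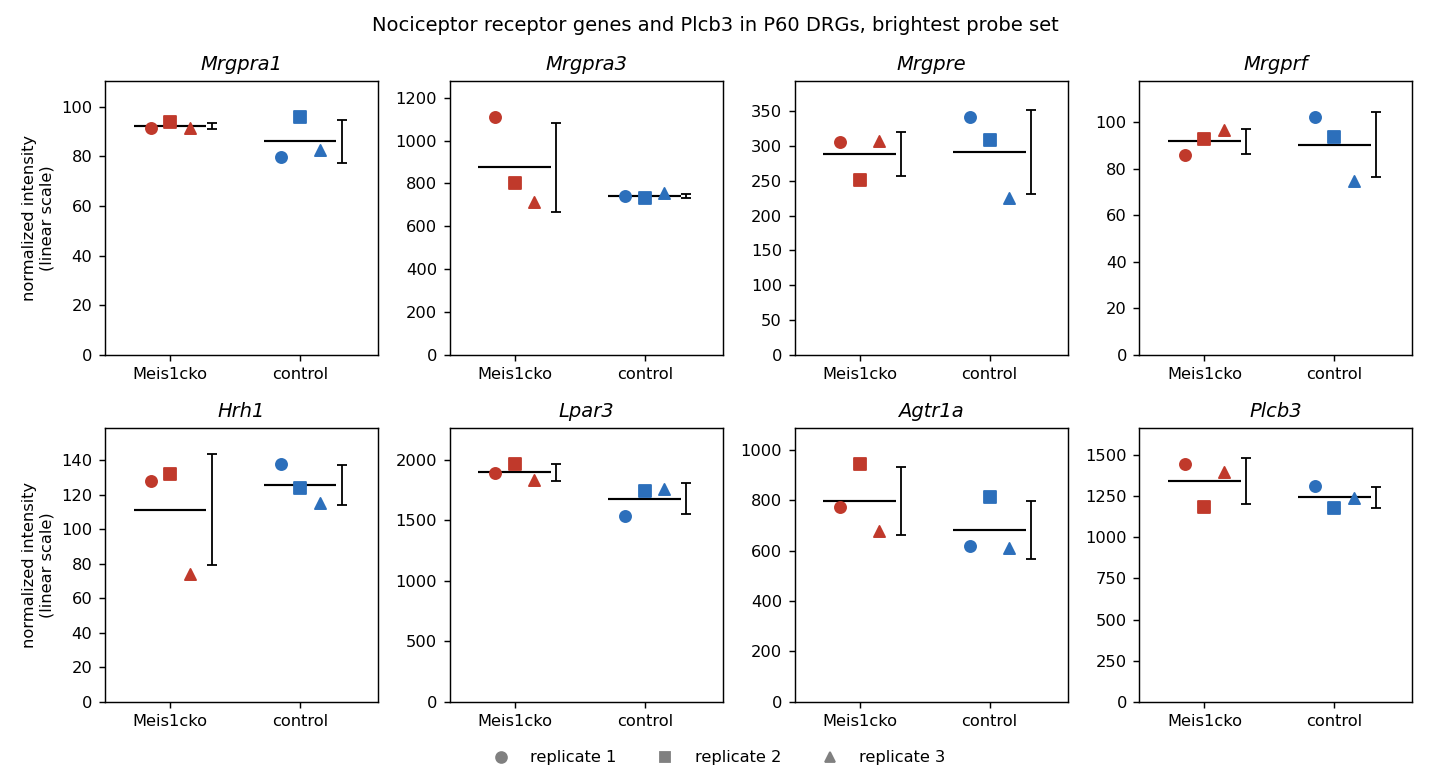
Normalized intensity (linear scale) of the brightest probe set of 8 genes in each Meis1cko (left, red) and control (right, blue) mouse at P60. Symbols mark the replicate number, horizontal lines the group means and bars beside them 1 SD (n = 3 mice). The 3 Meis1cko mice lie above the 3 control mice for Lpar3 and overlap them for the other 7 genes, and single mice stand apart for Mrgpra3 (1111 in Meis1cko replicate 1) and Hrh1 (74.2 in Meis1cko replicate 3).

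Lpar3 encodes a receptor for lysophosphatidic acid, a lipid mediator that acts on sensory neurons. Its intensity was 1892, 1966 and 1830 in Meis1cko mice and 1533, 1743 and 1761 in control mice. The lowest Meis1cko mouse lay 1.04-fold above the highest control mouse. The mean was 1896 ± 68.3 in Meis1cko and 1679 ± 126 in control DRGs (SD, n = 3 mice each), a log2 fold change of 0.18 (SE 0.12, 95% interval -0.10 to 0.45, adjusted p = 1 from limma). An exact two-sided permutation test gave p = 0.1, the smallest that 3 mice against 3 allow. Any gene whose groups do not overlap gets this value, so it adds nothing to the lack of overlap. With each array centred on its 75th percentile the mice overlapped, and none of the 8 genes had groups apart.

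Agtr1a encodes the type 1a receptor of angiotensin II, a peptide of blood pressure control, and is also known from vessel wall cells. Its intensity was 773, 945 and 679 in Meis1cko mice and 620, 815 and 613 in control mice, and the groups overlapped. The highest mouse of each genotype carried the number 2. The log2 fold change was 0.23 (SE 0.18, 95% interval -0.19 to 0.64, adjusted p = 1 from limma). It was the largest of the 8 genes with all arrays, but without Meis1cko replicate 2 it was 0.10, below the 0.26 of Mrgpra3, the 0.20 of Plcb3 and the 0.15 of Lpar3. Without control replicate 2 it was 0.36. The smooth muscle and pericyte markers are given beside Mrgprf, and their part was not tested here either.

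Plcb3 encodes the phospholipase C beta enzyme that several of these receptors act through, in the histamine response among others. Its intensity was 1447, 1185 and 1399 in Meis1cko mice and 1311, 1179 and 1240 in control mice. The groups overlapped, and the lowest mouse of each genotype was again number 2, which for Agtr1a was the highest. The log2 fold change was 0.11 (SE 0.13, 95% interval -0.19 to 0.41). It was 0.05 without Meis1cko replicate 1, 0.07 without control replicate 2 and 0.20 without Meis1cko replicate 2.

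Arrays with the same replicate number deviated together over all probe sets, with correlations of 0.42, 0.54 and 0.77 for the numbers 1, 2 and 3, and were therefore also compared in pairs. Arrays numbered 1 and 2 of different genotypes correlated at 0.34 and 0.32, not far below the 0.42 of the number 1. Those numbered 3 correlated with the others at -0.60 to -0.52. Deviations from a group mean cancel out within each genotype. What the arrays numbered 3 share therefore also raises the correlations among those numbered 1 and 2, whose pairing is less certain. Lpar3, Agtr1a and Plcb3 were higher in the Meis1cko mouse of all 3 pairs, and no brightest probe set of the 8 genes was lower in all 3. The dimmer probe set of Hrh1 was lower in all 3, with log2 differences of -0.23, -0.32 and -0.14 in the pairs 1, 2 and 3. On the brighter probe set of Hrh1 they were -0.11, 0.09 and -0.63. Among all probe sets 13.2% were higher in all 3 pairs, 15.7% were lower and 28.9% ran one way in all 3. The log2 differences of Meis1cko minus control in the pairs 1, 2 and 3 were 0.32, 0.21 and 0.15 for Agtr1a, 0.30, 0.17 and 0.06 for Lpar3, and 0.14, 0.01 and 0.17 for Plcb3. For Mrgpra3 they were 0.59, 0.13 and -0.08, so that the pair numbered 1 differed most and the pair numbered 3 ran the other way. For Mrgprf the differences of -0.25, -0.02 and 0.37 crossed 0 as well, and for Mrgpre they were -0.16, -0.30 and 0.45.

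Pairing the arrays made the errors smaller without bringing any gene past the threshold. The SE of Agtr1a was 0.10 in the paired fit and 0.18 in the unpaired one, and that of Hrh1 was 0.15 and 0.23. Over the brightest probe sets of the 8 genes the lowest adjusted p of the paired fit was 0.735 in limma (Agtr1a). The dimmer probe set of Hrh1 had an adjusted p of 0.732 in the same limma fit. That fit called 0.0822% of all probe sets.

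The intervals show which differences these 6 arrays leave possible. In the unpaired fit the 95% interval included no change for all 8 genes, and for 5 of them, Mrgpra1, Mrgpre, Mrgprf, Lpar3 and Plcb3, it lay within a 1.5-fold change in both directions. It reached 1.56-fold for Agtr1a and 1.54-fold for Mrgpra3 on the high side, and 0.59-fold for Hrh1 on the low side. In the paired fit all 8 intervals lay within 1.5-fold, which holds only if the arrays do pair by number.

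**Figure D2:**
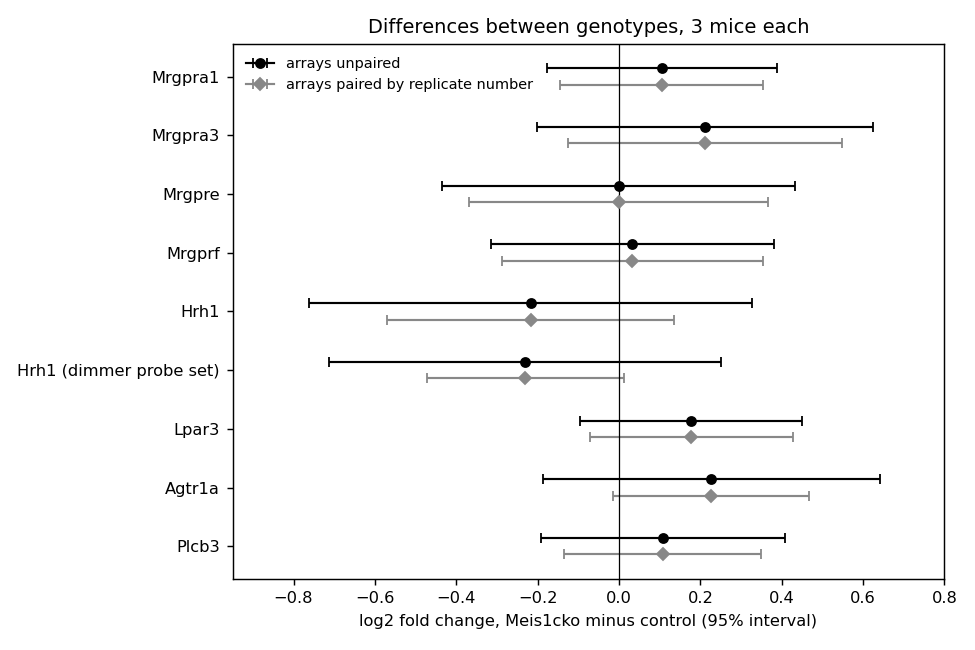
Log2 fold change (Meis1cko minus control, 3 mice each) of the 9 probe sets, with 95% intervals from limma, for arrays unpaired (black circles) and paired by replicate number (grey diamonds). All intervals cross 0, and those of the paired fit are shorter, with Agtr1a at 0.23 and an interval of -0.01 to 0.47.

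The correlations among the 8 genes over the mice ran in both directions. Over the 28 pairs of genes the correlation of the log2 values across the 6 arrays ranged from -0.48 to 0.83 with a median of 0.07, and 3 pairs were above 0.7. These were Mrgpra1 with Agtr1a (0.83), Mrgpre with Mrgprf (0.80) and Mrgpra1 with Lpar3 (0.72). After the group means were taken away, the correlations ranged from -0.80 (Agtr1a with Plcb3) to 0.81 (Mrgpre with Mrgprf). How this compares with pairs of other genes was not tested. All of these correlations describe the same 6 arrays, whose differences in RNA and hybridization the genes share.

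Among 12152 other genes at or above the median intensity, those closest to the 3 brightest of the 8 in their pattern over the 6 arrays were looked up by Pearson correlation. For Lpar3 they were Hnrnph2 (0.99), which encodes an RNA-binding protein, the transcription factor gene Zbtb16 (0.97) and the kainate receptor gene Grik1 (0.96). For Plcb3 they were Sorcs2 (0.99), which encodes a sorting receptor, Cnot11 (0.99), a part of the deadenylase complex, and Adal (0.99). For Mrgpra3 they were the zinc finger gene Zfp946 (0.99), the interleukin receptor gene Il1rap (0.99) and the mitochondrial carrier gene Slc25a46 (0.98). In all, 40 of the 12152 genes had a correlation over 0.9 with Lpar3, 56 with Plcb3 and 163 with Mrgpra3. Picking the highest of so many correlations over 6 arrays by itself favours values near 1. How many would arise by chance was not tested.

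Genes around the 8 were described from lists of the same families and pathways. Of 79 such genes 61 were measured, with 29 log2 fold changes above 0 and 32 below, and none passed the adjusted threshold in limma. At an unadjusted p under 0.05 there were 3 in limma (Lpar6, Mrgprb1 and Plcb1), against 2.32% of all probe sets, and 4 in the methods' t-test, which added Grik1, against 3.04%.

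Of 16 other genes of the Mas-related family, 5 were measured, and these 5 were dim, with no array above 32.5. The rest, among them Mrgprd, Mrgprb4 and Mrgprx1, had no probe set listed for them alone and have no value here. The study detected Mrgprd and Mrgprb4 in DRGs by in situ hybridization. Mrgprb1 had intensities of 8.38, 7.95 and 7.82 in Meis1cko mice and 9.98, 11.3 and 9.63 in control mice, groups that did not overlap, and all lay below the 25th percentile of the arrays (20.8 at the lowest). The log2 fold changes of Mrgprh, the angiotensin peptide receptor gene Mas1 and Mrgpra4 were -0.12, 0.13 and 0.12.

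The lysophosphatidic acid genes included the value farthest from 0 among the pathway genes. Lpar6, which encodes another receptor for this lipid, had intensities of 161, 157 and 124 in Meis1cko mice and 108, 96.0 and 87.2 in control mice, and the groups did not overlap. Its log2 fold change was 0.60 (SE 0.15), with an adjusted p of 1 in the unpaired and 0.169 in the paired fit of limma. Weighting the arrays brought Lpar6 past the adjusted threshold, in a fit that called 0.393% of all probe sets. The genes of the phosphatases that break the lipid down had values in both directions, with log2 fold changes of -0.31 for Plpp3, -0.27 for Plpp2 and 0.23 for Plpp1. The median of the 9 measured genes of the list was 0.02.

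The histamine genes other than Hrh1 had a median log2 fold change of -0.13 over 6 genes. The receptor genes Hrh4 and Hrh2 had -0.31 and -0.16, Hrh3 had 0.11, and Hdc, which encodes the enzyme that makes histamine, had -0.16. Mast cells store histamine, and 5 of the 7 mast cell markers had a log2 fold change below 0. The farthest was the chymase gene Cma1 at -0.56, with groups that did not overlap. The 2 above 0 were Ms4a2 at 0.23, which was dim and whose groups did not overlap either, and Kit at 0.08. The summed intensity of the 7 overlapped between Meis1cko (912 to 1034) and control DRGs (886 to 1016). Kit, with means of 762 in Meis1cko and 720 in control DRGs, dominated this sum, and the next brightest, Cpa3, had 58.5 and 80.7. The sum therefore says little of the dimmer markers. The part of mast cells in the histamine genes was not tested.

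Agtr1b, the second type 1 angiotensin receptor gene, had intensities of 200, 173 and 117 in Meis1cko mice and 233, 243 and 182 in control mice, and the groups overlapped. Its log2 fold change was -0.45 (SE 0.22), opposite in sign to the 0.23 of Agtr1a, and its adjusted p was 1 in the unpaired and 0.446 in the paired fit of limma. The other angiotensin genes with the smallest p were the precursor gene Agt (-0.16), the type 2 receptor gene Agtr2 (0.11), which was dim, and the peptidase gene Enpep (-0.15). The median of the 7 measured genes of the list was -0.01.

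Of 21 genes of Gq and phospholipase C signalling, 18 were measured, with 9 log2 fold changes above 0 and 9 below. Plcb1, another phospholipase C beta gene, had intensities of 753, 686 and 633 in Meis1cko mice and 910, 792 and 847 in control mice, groups that did not overlap, and a log2 fold change of -0.30 (SE 0.12). Plcb3 and Plcb4 had 0.11 and 0.12. The chloride channel gene Ano1 had 0.33 and the capsaicin receptor gene Trpv1 had -0.22.

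All 16 other genes of nonpeptidergic neurons were measured, with a median log2 fold change of 0.03. Grik1 had intensities of 2548, 2691 and 2392 in Meis1cko mice and 1911, 2318 and 2129 in control mice, which did not overlap, and a log2 fold change of 0.27 (SE 0.13). Lgals3, the galectin-3 gene, had 0.43, and the GDNF family receptor genes Gfra1 and Gfra2 had -0.10 and -0.14. Lgals3 is also known from macrophages, and 5 of the 6 macrophage markers had a log2 fold change below 0. Their part in its value was not tested.

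**Figure D3:**
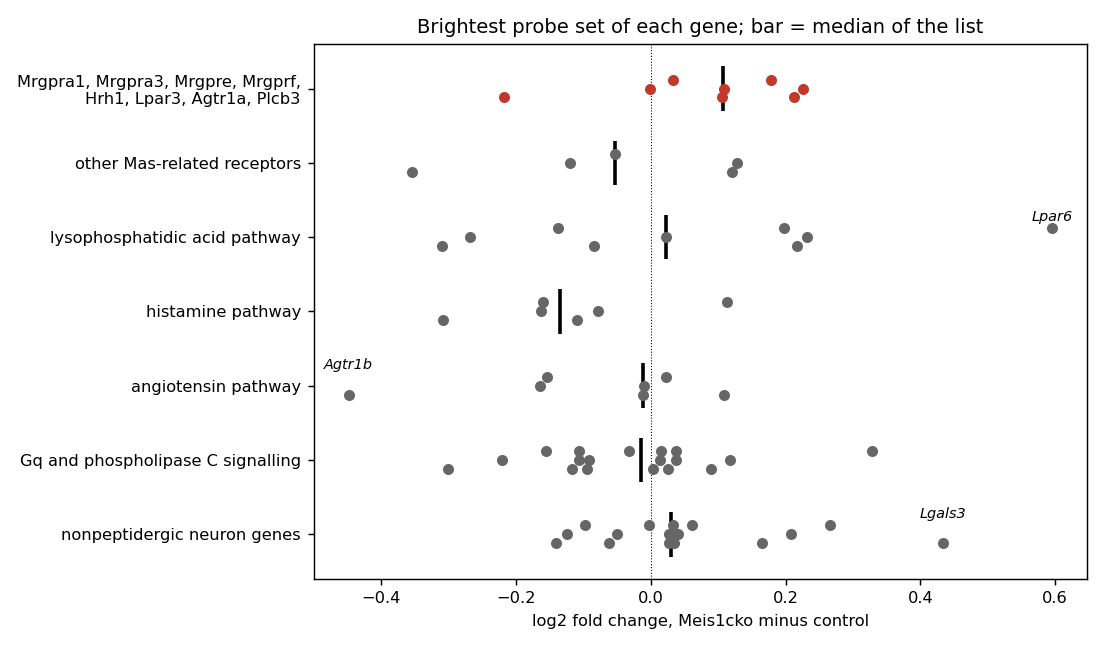
Log2 fold change (Meis1cko minus control) of the brightest probe set of each gene, by list, 3 mice per genotype. Each point is a gene and the vertical bar the median of its list, which is 0.11 for the 8 genes in the top row (red) and between -0.13 and 0.03 for the other lists. Lpar6 (0.60) lies farthest above 0 and Agtr1b (-0.45) farthest below.

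Markers of other cells of the ganglion were summed over each list for every mouse. All 6 fibroblast markers had a log2 fold change below 0, their median was -0.56, and their sums of 7590 to 9616 in Meis1cko DRGs lay below those of 10569 to 17256 in control DRGs. The 6 macrophage markers summed to 590 to 1053 in Meis1cko and 881 to 1467 in control DRGs, and the 6 endothelial markers to 811 to 1127 in Meis1cko and 833 to 1015 in control DRGs. The 7 measured of 10 satellite glia and Schwann cell markers summed to 47332 to 51084 in Meis1cko and 48356 to 54299 in control DRGs. The 9 sensory neuron markers summed to 65350 to 77728 in Meis1cko and 65767 to 75223 in control DRGs, and overlapped. One of them, the Nav1.8 gene Scn10a, had intensities of 1213, 950 and 993 in Meis1cko and 752, 696 and 804 in control mice, groups that did not overlap. Its log2 fold change was 0.48 (SE 0.14), and its adjusted p in limma was 1. Pou4f1 lay farther from 0 and the other way, at -0.67 (SE 0.48), with groups that overlapped. Of the 9 sensory neuron markers, 7 were above 0 and 2 below. None of these markers was called in the unpaired fit, the fibroblast marker Lum was in the paired one (adjusted p = 0.00717 from limma), and their part in the values of the 8 genes was not tested.

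The upstream sequences of these genes were set beside each other because Meis1 is a DNA-binding factor. RefSeq start sites of GRCm38.p6 gave windows of 250 bases before the start for 6 of the 9 genes, 10 windows in all. The core of the Meis binding motif, TGACAG on either strand, was in 0 of the 10 windows, and it was in 15.9% of all 32851 windows of that length. No match says only that these letters are not in these windows. The windows differed in base composition, and 2 are printed to show this, that of Lpar3, the gene whose mice did not overlap, and that of Mrgpra1, from the Mas-related cluster. They read 5′ to 3′ on the strand of the gene, with every CG step in capitals. The Lpar3 window is chr3:146220711-146220960 on the plus strand and the Mrgpra1 window chr7:47354241-47354490 on the minus strand.
Lpar3: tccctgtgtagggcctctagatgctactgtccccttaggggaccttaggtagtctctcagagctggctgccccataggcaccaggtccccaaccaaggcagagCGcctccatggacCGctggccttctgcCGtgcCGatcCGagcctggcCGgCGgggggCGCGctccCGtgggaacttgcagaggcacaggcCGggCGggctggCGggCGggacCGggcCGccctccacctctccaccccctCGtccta
Mrgpra1: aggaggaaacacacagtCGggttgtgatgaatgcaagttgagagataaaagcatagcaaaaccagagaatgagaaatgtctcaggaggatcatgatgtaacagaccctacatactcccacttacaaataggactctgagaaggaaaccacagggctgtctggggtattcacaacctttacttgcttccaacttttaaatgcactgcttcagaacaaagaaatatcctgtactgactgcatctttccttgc
The window of Lpar3 held 17 CG steps and was 69.6% G and C, and that of Mrgpra1 held 1 and was 42.4%, with a median of 6 steps and 52.4% over all windows. Plcb3 had 20 CG steps, Mrgpre 4, the 2 windows of Lpar5 had 4 and 5, and the 4 windows of Hrh1 ranged from 1 to 32.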

How the data were processed

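Total RNA of the DRGs of 3 Meis1cko and 3 control mice was hybridized to 1-colour Affymetrix mouse genome arrays. The extraction is given as RNeasy in the methods and Trizol in the labels. The authors read the images with the GeneChip Command Console and analysed them in GeneSpring, and the deposited values are normalized intensities on a linear scale. How the probes of a set were summarised and normalized is not given in the sources used here.

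Intensities were taken to log2 without an offset (0 values lay under 1, the floor), and 64 control probe sets were left out. Symbols came from the platform annotation, which lists 1 gene for 34945 of the 45037 probe sets tested, several for 932 and none for 9160. They were updated through the gene ID in RefSeq where it matched (34741 probe sets). A linear model with moderated variances (limma 3.58.1, R 4.3.3) compared the genotypes over all probe sets, with Benjamini-Hochberg adjustment, a threshold of 0.05 and moderated 95% intervals. The fit was run on simulated data with independent noise for each probe set, to check that it recovered the mean fold changes put in. That checks the code, not how often changes of this size would be found in these arrays. Nothing states that arrays of 1 number share a litter or day, and the pairing rests on their correlation. The number of arrays limits the precision.

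The genes and lists were chosen with earlier results of these data known. Named were all 9 genes, Meis1, up to 4 genes with the smallest p of each pathway list and any gene that passed, and the 3 genes closest in pattern to each of the 3 brightest. Markers and genes named beside them and the motif were added after the values were seen. These genes were Acta2, Cma1, Cnn1, Cpa3, Kit, Lum, Ms4a2, Myh11, Notch3, Pdgfrb, Pou4f1, Rgs5, Scn10a and Tagln. Alternatives were moderation with an intensity trend, weights per array, the methods' t-test, and the methods' thresholds of fold and p with the limma p. Others were quantile and centring scalings, leaving out probe sets below the median, and adding 16 or 50 before log2. The replicate block, arrays left out, and a mean over each gene's probe sets were further alternatives.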

Additional observations from a re-analysis of the deposited data

How the results depend on the processing

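None of the 8 genes was called under any alternative. Of 105 log2 fold changes under alternatives that can move them, 92 kept their sign and 13 changed sign, none of them called. Another 47 were fixed by construction, since 5 alternatives change only the test or the probe sets tested and the mean over probe sets leaves the 7 genes with 1 probe set as they were. Lpar3, Agtr1a, Mrgpra3 and Mrgpra1 were above 0 in the 13 alternatives that can move them, with ranges of 0.11 to 0.24, 0.10 to 0.36, 0.03 to 0.36 and 0.05 to 0.19. Mrgpre turned to 0.0136 with quantile normalization, 0.00606 centred on the median and 0.0169 centred on the 75th percentile, Mrgprf to -0.00563 with array weights and -0.133 with both arrays numbered 3 left out, and with array weights Hrh1 to 0.0316 and Plcb3 to -0.0110. With single arrays left out, Mrgpre ranged from -0.179 to 0.125, Mrgprf from -0.0955 to 0.130, Hrh1 from -0.362 to 0.0529 and Plcb3 from 0.0518 to 0.196. The cause of these turns was not tested.

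The median of the 8 genes was 0.0397 with array weights and 0.0785 without both arrays numbered 3, and 0.0652 to 0.129 with single arrays left out (0.0652 without Meis1cko replicate 1). The number of genes with groups apart, 1 as given, was 2 with quantile normalization, 0 centred on the 75th percentile, 2 with probe sets averaged, 4 without both arrays numbered 3, and 1 to 3 with single arrays left out (3 without control replicate 2, and 2 without control replicate 3, Meis1cko replicate 2 or Meis1cko replicate 3). Among all probe sets 7.23%, 6.35%, 7.14% (of genes), 32.6% and 11.2% to 20.9% had groups apart in these settings, with 13.6% without control replicate 2. With probe sets averaged, the gene added to Lpar3 was Hrh1, with all Meis1cko mice below all control mice. The number of genes apart does not depend on the test and was not recomputed for alternatives of the test. Of the pathway genes, 1 was called with array weights and 1 at a fold over 1.5 and an unadjusted limma p under 0.05 (Lpar6 both times).

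Over all probe sets the 7 calls became 177 with array weights, 0 in the methods' t-test after adjustment, 304 at a fold over 1.5 and an unadjusted limma p under 0.05, 11 with quantile normalization, 4 with the filter at the median, 1 with an offset of 16 and 1 with 50, 37 with the replicate block, 26 without both arrays numbered 3, and 1 to 15 with single arrays left out (1 without Meis1cko replicate 1 or control replicate 1, 2 without control replicate 2, 3 without Meis1cko replicate 2, 4 without control replicate 3 and 15 without Meis1cko replicate 3). The replicate block changed no call of the 8 genes or of the pathway genes.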
